A study of Mus musculus with 6 samples.

Results

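Pkm, the gene of the muscle-type pyruvate kinase, was examined transcript by transcript together with the gene sums of 4 splicing factors known to act on its alternative exons, Ptbp1, Hnrnpa1, Hnrnpa2b1 and Srsf3. The 5 genes were chosen by name and hold 11 Pkm transcripts and 44 transcripts of the splicing factors, of 35968 genes and 116728 transcripts with values. RNA was sequenced from MS-5 cells, a mouse bone marrow stromal line, cultured alone (MS-5 only, libraries MO1, MO2 and MO3) or for 24 hr with SKM-1 cells, a human acute myeloid leukaemia line (co-culture, libraries MC1, MC2 and MC3), at 4 SKM-1 cells per stromal cell and 750000 SKM-1 cells per ml. Both groups are of this one unmodified stromal line, no library of SKM-1 cells alone was used here, and attached leukaemic cells had been removed by washing and mild trypsinisation rather than by sorting. Whether replicates came from separate cultures is not stated for these libraries, so that p-values measure the spread between these samples only.

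Pyruvate kinase carries out the last step of glycolysis, the transfer of phosphate from phosphoenolpyruvate to ADP, which yields pyruvate and ATP. Pkm makes 2 forms of the enzyme from a pair of mutually exclusive exons of equal length. The M1 form is typical of muscle and brain and is constitutively active, while the M2 form is typical of embryonic, proliferating and tumour cells and is controlled by allosteric ligands such as fructose 1,6-bisphosphate. PTB (Ptbp1), hnRNP A1 (Hnrnpa1) and hnRNP A2/B1 (Hnrnpa2b1) bind around the M1 exon and repress it, whereas SRSF3 (Srsf3) favours the M2 exon.

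On the annotation of GRCm38 (GENCODE M21), Pkm (ENSMUSG00000032294.17) lies on the plus strand of chromosome 9, from 59656368 to 59679375. Its M1 exon is at chr9:59675029-59675195 and is exon 9 of the 11 exons of Pkm-202. Its M2 exon is at chr9:59675568-59675734 and is exon 9 of the 11 exons of Pkm-201. The 2 exons are each 167 bases long and 372 bases apart, and both are coding. They are shown because they are the only sequence by which the forms differ in the protein they encode, with the bases that differ between them in capitals:
M1 exon: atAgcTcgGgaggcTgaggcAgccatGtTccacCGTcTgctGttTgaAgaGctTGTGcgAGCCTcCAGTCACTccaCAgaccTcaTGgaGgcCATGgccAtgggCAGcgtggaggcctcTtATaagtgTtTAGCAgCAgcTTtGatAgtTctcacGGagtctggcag
M2 exon: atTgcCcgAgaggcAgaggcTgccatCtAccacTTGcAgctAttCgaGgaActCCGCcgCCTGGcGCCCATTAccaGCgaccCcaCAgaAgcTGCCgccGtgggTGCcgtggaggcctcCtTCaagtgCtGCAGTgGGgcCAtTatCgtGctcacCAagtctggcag
The exons differ at 64 positions and are identical at 103, or 61.7% of their length.

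The intron that follows the M1 exon is where hnRNP A1 is known to bind, while PTB is known chiefly for pyrimidine-rich sites in the intron before that exon, whose sequence was not analysed here. The opening 100 bases of the following intron, chr9:59675196-59675295 on the plus strand, are part of the retained-intron transcript Pkm-203 and are shown with motifs of these proteins in capitals:
bases after the M1 exon: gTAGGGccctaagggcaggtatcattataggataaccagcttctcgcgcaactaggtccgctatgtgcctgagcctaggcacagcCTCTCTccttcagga
The hnRNP A1 motif TAGGG was found at position 2, counted from 1 at the start of the intron, and the PTB motif CTCTCT at position 86. The sense strand alone was searched, since these proteins bind RNA, and the motifs do not overlap. Of 18990 windows of 100 bases that follow an exon in annotated retained-intron transcripts, 9.13% held TAGGG and 5.91% held CTCTCT. The PTB motif TCTT, present in 44.3% of the windows, was not in this window, which does not cover the intron before the exon. In the alternative exons themselves TCTT was found 1 time, at position 118 of the M1 exon, and 48.4% of 1092 annotated exons of 167 bases held it.

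Total estimated counts ranged from 23978881 to 35694987 per library. MO2 and MC3 stood apart from the other 4 libraries by their values, while no sample label sets them apart. Retained-intron transcripts held 5.25% and 5.38% of their TPM against 2.47 to 2.74% elsewhere, and 6.07% and 5.92% of their counts were mitochondrial against 10.6 to 13.2%. Of 20 leukocyte markers, 16 were tested and 11 of these were above every MS-5 only library in CPM (counts per 1000000) in all of the co-culture libraries, as were 11.6% of all genes. Of the 16, 9 passed the filter on low counts only with their co-culture libraries, which bears on that count, and of the other 7 markers 2 were above. The summed level of the 20 was 91.0 to 109 CPM in MS-5 only against 150, 455 and 147 CPM in MC1, MC2 and MC3. Irf8 was at 0 in all 3 MS-5 only libraries, and Ptprc (CD45) had 1 to 10 counts there and 113 to 410 in co-culture. Other markers of the same list did not separate the groups, with Lyz2 at 421, 681 and 671 counts in MS-5 only against 606, 480 and 508 in co-culture, Cd33 at 7, 14 and 0 against 1, 3 and 11, and Tyrobp at 0 or 1 count in every library. Of 15 stromal markers, 14 were tested and 3 of these were above and none below without overlap, and the summed level of the 15 was 11912 to 13488 CPM in MS-5 only against 14597 to 16074 CPM in co-culture.

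The M2 transcript was the main form of Pkm in every library, and both forms were more abundant in each co-culture library than in any MS-5 only library when measured per length. Levels are in transcripts per 1000000 (TPM), which divide counts by effective transcript length. Pkm-201 (M2) was at 1342, 1045 and 1015 TPM in MO1, MO2 and MO3 and at 1998, 1620 and 1693 TPM in MC1, MC2 and MC3. Its mean was 1134 ± 181 TPM in MS-5 only against 1770 ± 201 TPM in co-culture (SD, n = 3). Pkm-202 (M1) was at 352, 304 and 310 TPM in MS-5 only against 494, 386 and 431 TPM in co-culture, with means of 322 ± 25.8 and 437 ± 54.4 TPM (SD, n = 3). For both transcripts MC1 was the highest library and the groups did not overlap, which was so, with co-culture higher, for 4.97% of the 34440 transcripts tested.

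The count test did not call either transcript. Estimated counts of Pkm-201 were 70805, 44608 and 48410 in MS-5 only against 137002, 85761 and 78349 in co-culture. The log2 fold change was 0.68 (SE 0.40, 0.44 to 0.95 with a library left out), with an adjusted p of 1.00 by edgeR's quasi-likelihood test. Pkm-202 had 15307, 10708 and 12213 counts in MS-5 only against 27951, 16848 and 16458 counts in co-culture. Here the log2 fold change was 0.47 (SE 0.33, 0.25 to 0.67 with a library left out), with an adjusted p of 1.00 by edgeR. This test called 0% of the 34440 transcripts at an adjusted p below 0.1, while 2131 had an unadjusted p below 0.05. On the same transcripts, DESeq2 called 1157 (3.36%) and limma on log2(TPM + 0.5) called 172 (0.499%), neither Pkm-201 nor Pkm-202 among them.

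**Figure D1:**
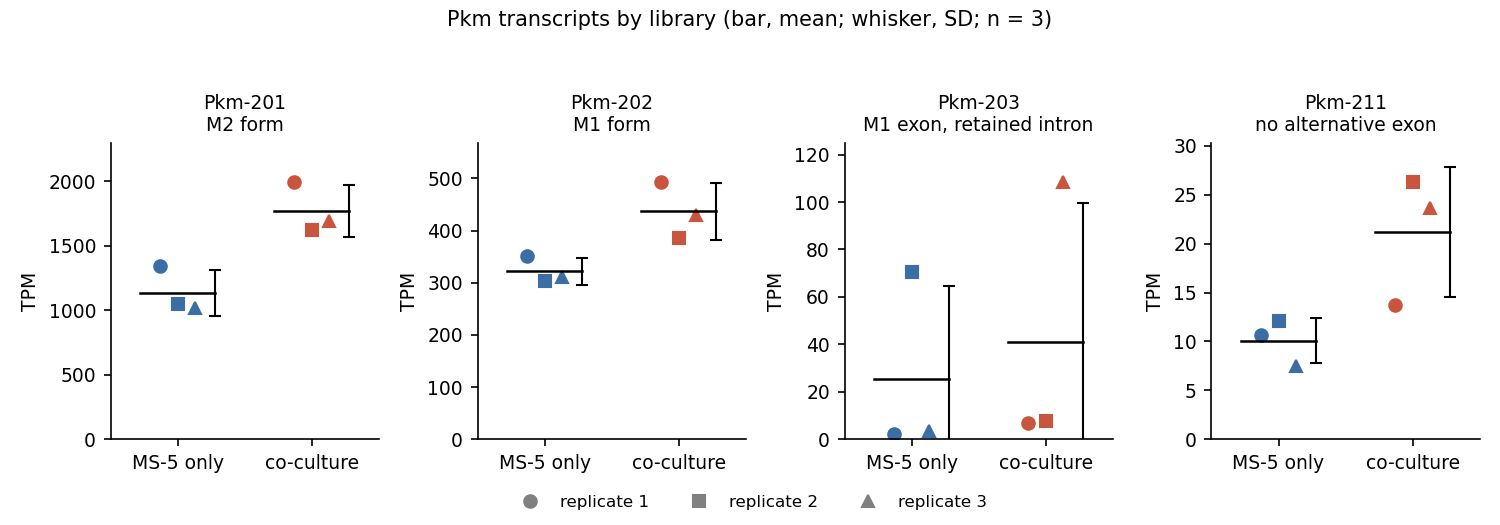
TPM (vertical axis, from 0, a different scale in each panel) of 4 Pkm transcripts in the 3 MS-5 only and 3 co-culture libraries, with 1 point per library, the mean as a bar and the SD as a whisker, which stops at the axis for Pkm-203. Pkm-201 and Pkm-202 lie higher in each co-culture library than in any MS-5 only library, whereas Pkm-203 is above 70 TPM in MO2 and MC3 and under 8 TPM in the other 4 libraries.

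The other 9 Pkm transcripts together held a small part of the gene, which was larger in MO2 and MC3. The retained-intron transcripts held 7.93% of its TPM in MO2 and 7.74% in MC3, against 0.296 to 0.586% elsewhere. Of the 11 Pkm transcripts, 10 passed the filter on low counts and Pkm-208, at 1.86 to 3.40 TPM, did not. Pkm-203, which holds the M1 exon and runs on into the following intron, was at 70.6 TPM in MO2 and 109 TPM in MC3 and at 2.30 to 7.68 TPM in the other 4 libraries. Pkm-205, another retained-intron transcript, which ends before the alternative exons, was at 49.4 TPM in MO2 and 73.9 TPM in MC3 and at 1.82 to 4.93 TPM elsewhere. These are the same 2 libraries that had the larger share of retained-intron TPM over all genes.

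Pkm-211, a short coding transcript with neither alternative exon, was at 10.6, 12.1 and 7.53 TPM in MS-5 only against 13.7, 26.4 and 23.6 TPM in co-culture. Its groups did not overlap, and it had the smallest p of the Pkm transcripts, with a log2 fold change of 1.16 (SE 0.39) and an adjusted p of 0.59 by edgeR. With a library left out that fold change ranged from 0.73 to 1.35. Pkm-204, Pkm-206, Pkm-207, Pkm-209 and Pkm-210 were each at 9.77 TPM or less in every library, their groups overlapped, and their log2 fold changes ranged from -0.29 to 0.60 with adjusted p of 1.00 by edgeR. Their direction changed with a library left out, except for Pkm-209. Its value of 0.60 was lowered by MO2 and was 1.51 without that library, in a range of 0.33 to 1.51.

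Summed by form, M1 (Pkm-202 and Pkm-203) had a log2 fold change of 0.48 (SE 0.30) and M2 (Pkm-201) of 0.68 (SE 0.40), each with an adjusted p of 1.00 by edgeR. The 8 transcripts with neither exon had a log2 fold change of 0.60 (SE 0.81). The fold change of M1 thus lay 0.20 below that of M2 on the log2 scale. In the test of transcript usage, which asks whether a transcript moved apart from the rest of its gene, neither Pkm-201 nor Pkm-202 was called (adjusted p of 1.00 by edgeR), where 0.134% of transcripts were.

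The M1 share of Pkm, the part of the M1 and M2 counts that were M1, was lower on average in co-culture, but the groups overlapped. It was 17.8%, 20.4% and 20.2% in MO1, MO2 and MO3 and 17.0%, 16.5% and 18.4% in MC1, MC2 and MC3. MC3 lay above MO1, and the other co-culture libraries lay below every MS-5 only library. The mean share was 19.5% ± 1.45 in MS-5 only against 17.3% ± 1.00 in co-culture (SD, n = 3), a difference of -2.16 percentage points with p = 0.20 in the exact two-sided permutation test. With 3 libraries against 3 that test cannot give a p below 0.1. Each share rests on 56060 to 165066 counts, and its 95% Wilson interval reaches at most 0.334 percentage points to either side, for counting error alone.

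Without the retained-intron transcript Pkm-203 the groups separated. The share of Pkm-202 in the counts of Pkm-201 and Pkm-202 was 17.8%, 19.4% and 20.1% in MS-5 only against 16.9%, 16.4% and 17.4% in co-culture. All co-culture libraries were then below all MS-5 only libraries, with a mean difference of -2.19 percentage points and p = 0.10 in the exact two-sided permutation test, the smallest it can give. By TPM the share with Pkm-203 was 23.6% ± 2.76 in MS-5 only against 21.2% ± 2.54 in co-culture (SD, n = 3), and without it 22.2% ± 1.35 and 19.8% ± 0.530 (SD, n = 3). Pkm-203 was thus the transcript on which the overlap of the groups turned, through MC3.

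**Figure D2:**
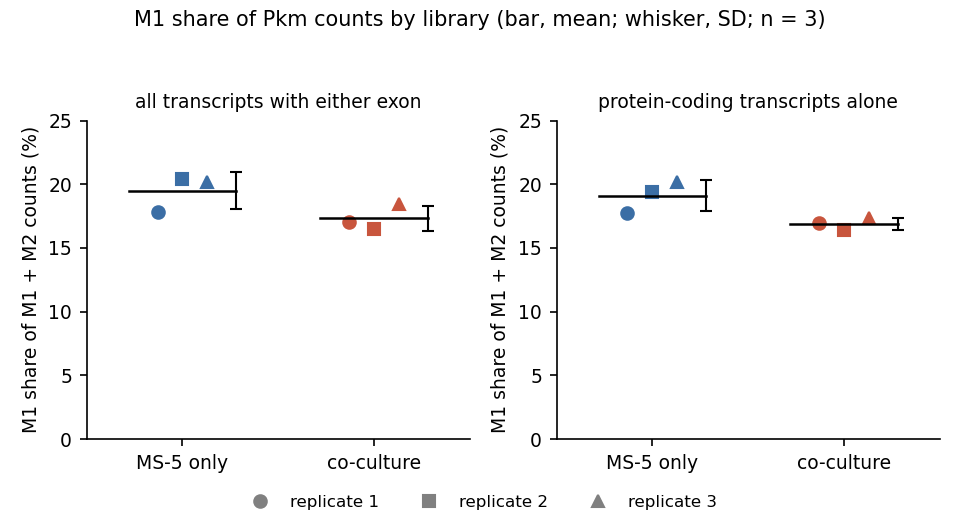
M1 share of the M1 and M2 counts of Pkm in percent (vertical axis, from 0) in each library, from all transcripts with either exon and from protein-coding transcripts alone, with 1 point per library, the mean as a bar and the SD as a whisker. With all transcripts MC3 lies above MO1, and with protein-coding transcripts alone the 3 co-culture libraries are lower than the 3 MS-5 only libraries.

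How well the counts tell the forms apart depends on sequence that is not shared. Of the 197 stretches of 31 bases that touch the alternative exon, 185 were in no transcript but those of the M1 form, and 79 were in no transcript but that of the M2 form. The other 118 of the M2 exon were in other indexed transcripts too. Pkm-201 had a further 391 stretches of its own outside the exon, because its first and last exons are 282 and 648 bases long against 77 and 462 bases in Pkm-202. A read that lies within these longer ends could be assigned to Pkm-201 whichever exon its molecule held. Taken alone, Pkm-202 had 19 stretches in no other indexed transcript, all touching the M1 exon, and Pkm-203 had 286. The share without Pkm-203 therefore depends on how shared reads were split between Pkm-202 and Pkm-203. Pkm has 5 processed pseudogenes that share 100 or more such stretches with it, and they took 11.2 to 35.7 counts in all per library.

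As a gene, Pkm had the highest level of the 5 in every library and was higher in co-culture per length. Its TPM were 1728, 1513 and 1357 in MS-5 only against 2535, 2065 and 2358 in co-culture, so that the groups did not overlap. Co-culture was above MS-5 only without overlap in 7.68% of the 13221 genes tested. In CPM, normalised between libraries, it was at 3456, 1855 and 2765 in MS-5 only against 5060, 4295 and 2896 in co-culture, so that MC3 lay below MO1. The log2 fold change was 0.60 (SE 0.37, adjusted p of 0.56 by edgeR), where 4.38% of all genes were called. Once MO2 and MC3 were given a term of their own in the fit it was 0.61, with an adjusted p of 0.021, in a fit that called 30.2% of all genes. Without those 2 libraries it was 0.61 with an adjusted p of 0.11.

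Pklr, the gene of the liver and red cell pyruvate kinase, had 0 counts after rounding in every library and was not tested. Among 12 enzymes and carriers next to pyruvate kinase, 11 were tested, with a median log2 fold change of -0.03 against -0.02 over all genes tested. The test called 1 of them, as higher, where it called 3.71% of all genes higher. That gene was Eno2, the neuronal enolase, with 7, 19 and 6 counts in MS-5 only against 175, 803 and 160 counts in co-culture (log2 fold change 5.18, and 3.66 without MC2). It passed the filter on low counts only with its co-culture libraries, so that its values are a description, no p is given, and nothing is read from its call. MC2 was its highest library, as for the summed level of the leukocyte markers, and the part of leukocyte RNA in this result was not tested. Ldha, the lactate dehydrogenase subunit that turns pyruvate into lactate, was at 1323, 597 and 1047 CPM in MS-5 only against 2741, 2183 and 1398 CPM in co-culture (log2 fold change 1.09, SE 0.40, adjusted p of 0.27 by edgeR). Mpc1, a subunit of the mitochondrial pyruvate carrier, had the most negative value of the list, at -0.38 (SE 0.30, adjusted p of 0.69 by edgeR). With the term for MO2 and MC3, 3 of the 10 tested genes other than Eno2 were called higher, against 13.9% of all genes in that fit, and 2 lower, against 16.4%. The higher genes were Ldha (adjusted p of 0.011 by edgeR), Eno1 (0.012) and Eno1b (0.016), a near-identical copy of Eno1 with which it may share reads. The lower genes were the carrier subunits Mpc1 (0.017) and Mpc2 (0.031).

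The genes whose log2 CPM followed Pkm most closely over the 6 libraries were Tsc22d4, Ppp2r5a, the pseudogene Pgam1-ps2, Rxrb and Foxo1, with Pearson's r of 0.994 to 0.997. For the M2 sum the 5 genes were Pgam1-ps2, Ppp2r5a, Tsc22d4, Rxrb and Eno1, the enolase that acts just before pyruvate kinase, with r of 0.995 to 0.998. None of these 6 genes was called in the fit without a term for MO2 and MC3, while with it all but Ppp2r5a were called higher, as Pkm was. They were picked for following Pkm over the same libraries, so that nothing is read from these calls. The 6 points of each correlation include MO2 and MC3, the libraries that stood apart. Over the same 6 libraries r with the Pkm gene was 0.82 for Ptbp1, 0.29 for Hnrnpa1, 0.02 for Hnrnpa2b1 and -0.35 for Srsf3.

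Of the splicing factors that repress the M1 exon, none was called in either direction, where 3.71% of genes were called higher and 0.666% lower, and their groups overlapped on both scales. Per length Hnrnpa1 and Hnrnpa2b1 came after Pkm, then Ptbp1, then Srsf3, in every library. Hnrnpa1 was above Hnrnpa2b1 in 4 libraries and below it in MC2 and MC3, so that the order of these neighbours did not exceed their spread.

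Ptbp1 (ENSMUSG00000006498.16, chromosome 10, 79854427 to 79864771) was at 519, 387 and 413 CPM in MS-5 only against 503, 465 and 411 CPM in co-culture, with a log2 fold change of 0.064 (SE 0.19, adjusted p of 0.96 by edgeR) that turned to -0.024 without MO2 and to -0.017 without MC1. Its TPM were 237, 291 and 182 in MS-5 only against 225, 215 and 316 in co-culture, highest in MO2 and MC3.

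Hnrnpa1 (ENSMUSG00000046434.16, chromosome 15, 103240432 to 103246692) was at 830, 845 and 689 CPM in MS-5 only against 893, 807 and 818 CPM in co-culture, with a log2 fold change of 0.092 (SE 0.19, adjusted p of 0.93 by edgeR). Its TPM were 590, 873 and 474 in MS-5 only against 635, 539 and 868 in co-culture. A large part of its sequence is not its own, since 29.9% of its stretches of 31 bases are shared with other genes. The 12 genes that share 100 or more of them, 11 of them pseudogenes, had 1445 to 2224 counts in MS-5 only and 2540 to 5503 in co-culture, set against 15193 to 29268 counts of Hnrnpa1 itself. The pseudogene Gm5643 had 4.4, 20.0 and 4.4 counts in MS-5 only against 332, 1746 and 280 counts in co-culture, and was highest in MC2, as was the summed level of the leukocyte markers.

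Hnrnpa2b1 (ENSMUSG00000004980.16, chromosome 6, minus strand, 51460932 to 51469894) was at 648, 732 and 565 CPM in MS-5 only against 664, 787 and 747 CPM in co-culture, with a log2 fold change of 0.18 (SE 0.19, adjusted p of 0.80 by edgeR). Its TPM were 482, 865 and 410 in MS-5 only against 497, 557 and 886 in co-culture. Its pseudogene Gm5778 had 2.0, 8.0 and 0 counts in MS-5 only against 55.3, 330 and 105 counts in co-culture.

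Srsf3 (ENSMUSG00000071172.13, chromosome 17, 29032628 to 29043373), the factor that favours the M2 exon, was lower in co-culture as a count, but not per length. It was at 352, 265 and 318 CPM in MS-5 only against 203, 227 and 204 CPM in co-culture, without overlap, as in 9.60% of genes with co-culture lower. The log2 fold change was -0.56 (SE 0.16, adjusted p of 0.16 by edgeR), but 0.023 with an offset for effective length. Its TPM were 156, 179 and 140 in MS-5 only against 110, 191 and 178 in co-culture, so that the groups overlapped. The count difference was past the threshold in DESeq2 (adjusted p = 0.016), with a term for MO2 and MC3 in edgeR (adjusted p = 0.017) and in edgeR without those 2 libraries (adjusted p = 0.077), which called 9.59%, 30.2% and 13% of genes.

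**Figure D3:**
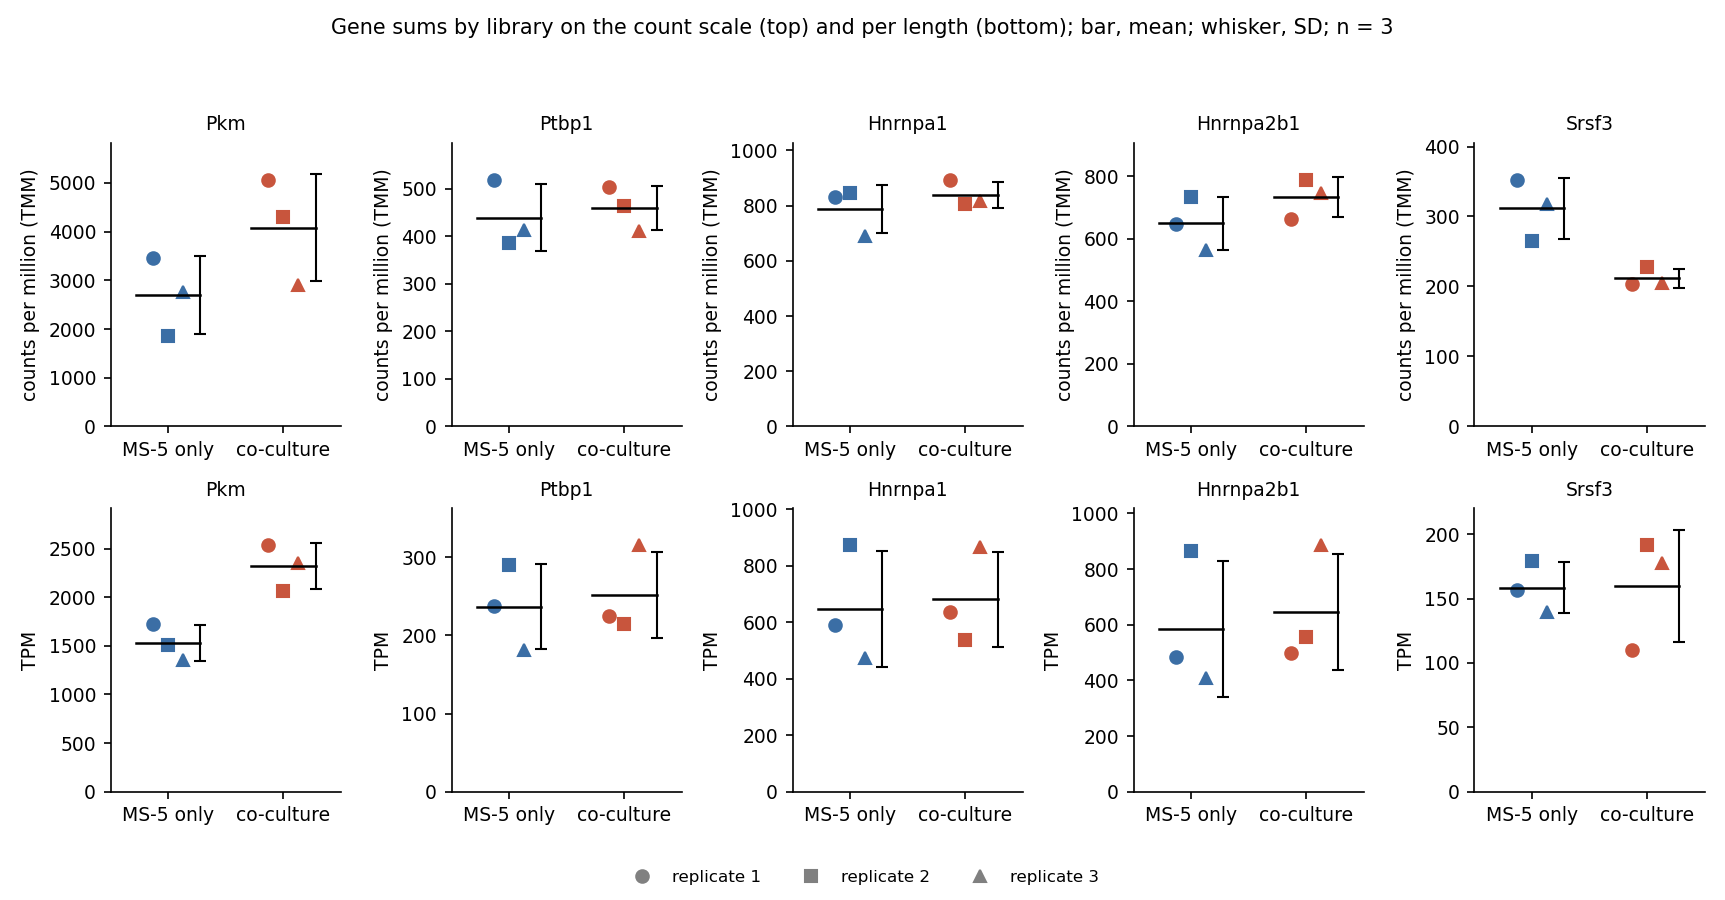
Gene sums of the 5 genes in each library, in CPM normalised by TMM (top row) and in TPM (bottom row), both axes from 0 and different in each panel, with 1 point per library, the mean as a bar and the SD as a whisker. Pkm does not overlap between groups in TPM, Srsf3 does not overlap in the top row, and Ptbp1, Hnrnpa1 and Hnrnpa2b1 overlap in both rows.

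Part of the gap between the 2 scales of Srsf3 lay in a short transcript, Srsf3-208, that was listed at 0 in MS-5 only. Without it the TPM of the gene were 156, 179 and 140 in MS-5 only against 91.7, 96.2 and 141 in co-culture, and the groups still overlapped, with MC3 above MO3. The coding transcript, Srsf3-202, was at 144, 111 and 122 TPM in MS-5 only against 72.1, 72.0 and 64.0 TPM in co-culture. All co-culture libraries were thus below all MS-5 only libraries, as for 6.77% of transcripts. Its log2 fold change in counts was -0.82 (SE 0.35, adjusted p of 0.84 by edgeR), and limma on log2(TPM + 0.5) gave an adjusted p of 0.098, where it called 0.499% of transcripts. That call was lost with a pseudocount of 1 (adjusted p of 0.12 by limma). In edgeR with the term for MO2 and MC3, which called 0.401% of transcripts, the adjusted p was 0.087, and without those 2 libraries it was 0.27. Its share of the TPM of the gene was 92.0%, 62.2% and 87.0% in MS-5 only against 65.6%, 37.6% and 36.02% in co-culture, so that here the groups overlapped, with MC1 above MO2.

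Srsf3-208, a transcript of 319 bases annotated as processed, had 0 counts in MO1, MO2 and MO3 and 76.4 counts in MC1, 310 in MC2 and 106 in MC3. These counts are 18.3, 95.3 and 36.2 TPM, because the transcript is short. They make up 16.6%, 49.8% and 20.4% of the TPM of the gene in MC1, MC2 and MC3. As a share of the counts pooled over the libraries of a group, co-culture was at least 141-fold higher, taking 3 counts over the 3 MS-5 only libraries as the floor, or 0.0383 CPM. The bound rests in large part on MC2, and is 72.9-fold without that library. The transcript passed the filter on low counts through co-culture alone, so that its values are a description and no p is given. Of all transcripts tested, 0.29% were at 0 in MS-5 only with 3 or more counts in each co-culture library. MC2 was the highest library, as for the summed level of the leukocyte markers, Gm5643 and Gm5778, and their part in this result was not tested.

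Srsf3-208 skips the 208-base exon that is exon 2 of Srsf3-202, at chr17:29036241-29036448. The joins are shown because they are the sequence that tells the transcripts apart, with the last 15 bases of exon 1 in lower case and the bases that follow in capitals:
Srsf3-208 junction of exons 1 and 2: gaacccaggatctcgAACACTGTGTGGCTG
Srsf3-202 junction of exons 1 and 2: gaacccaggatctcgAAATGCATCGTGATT
Of the 289 stretches of 31 bases in Srsf3-208, 27 were in no other indexed transcript, so that its counts rest on reads over few positions.

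Srsf3-201, which includes a 456-base exon that makes the transcript a target of nonsense-mediated decay and through which SRSF3 is known to limit its own level, did not separate the groups. It was at 8.67, 36.4 and 12.0 TPM in MS-5 only against 13.6, 14.8 and 38.6 TPM in co-culture, highest in MO2 and MC3, the libraries with more retained-intron TPM. Inclusion of the exon, the TPM of transcripts that hold it as a share of those that hold or skip it, was 13.1% ± 10.1 in MS-5 only against 16.3% ± 10.2 in co-culture (SD, n = 3).

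**Figure D4:**
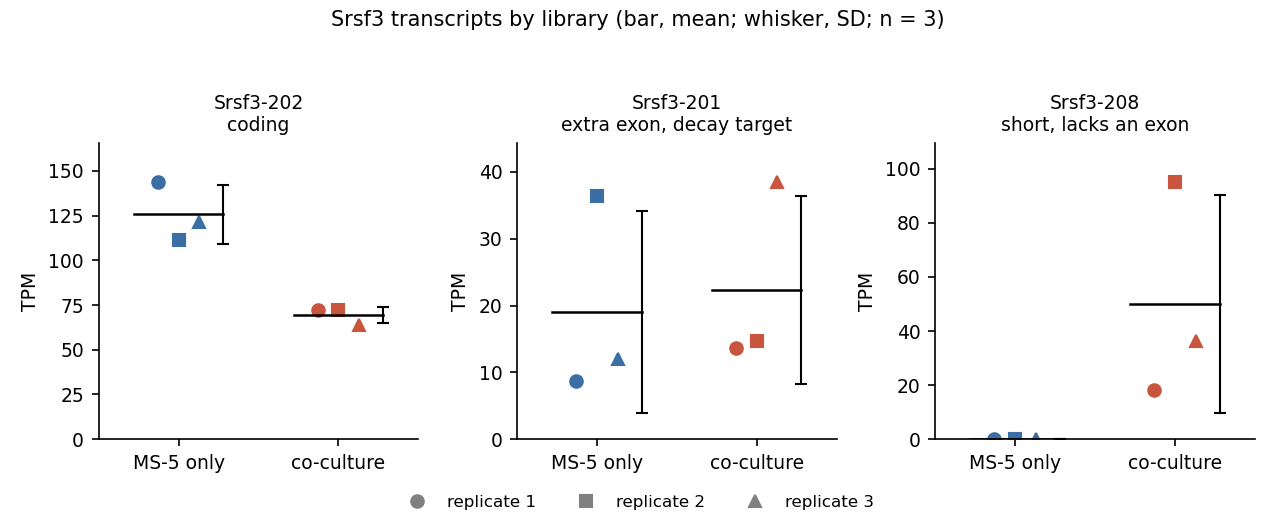
TPM (vertical axis, from 0, a different scale in each panel) of 3 Srsf3 transcripts in each library, with 1 point per library, the mean as a bar and the SD as a whisker. The coding Srsf3-202 is lower in the 3 co-culture libraries, Srsf3-201 is highest in MO2 and MC3, and Srsf3-208 is at 0 in MS-5 only against 18.3 to 95.3 TPM in co-culture.

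Of the 44 transcripts of the splicing factors, 32 passed the filter on low counts and none was called by edgeR, as was so for all 34440 transcripts tested. Of the 32, Srsf3-208 and Ptbp1-206 were at 0 in all MS-5 only libraries, and the filter fixed their direction. Among the other 30, 1 (Hnrnpa2b1-204) had an unadjusted p below 0.05 by edgeR, against 6.19% of all transcripts, none was called by DESeq2 and 1 (Srsf3-202) by limma on log2(TPM + 0.5). Of these 30, none was above MS-5 only without overlap in TPM, and Srsf3-202 and Hnrnpa2b1-201 were below, against 6.77% of all transcripts. Ptbp1-206, a coding transcript, had 0 counts in all MS-5 only libraries and 84.1, 36.6 and 56.6 counts in co-culture, or at least 50.6-fold more of the pooled counts against the same floor. Its highest library was MC1 and not MC2. Like Srsf3-208 it passed the filter on low counts through co-culture alone, and no p is given.

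In Hnrnpa2b1 the transcripts that include a 120-base exon (chr6:51464428-51464547, in the coding part that encodes the glycine-rich tail) held a larger share in co-culture. Inclusion was 59.2%, 64.7% and 57.7% in MS-5 only against 70.3%, 75.0% and 73.2% in co-culture, with means of 60.5% ± 3.72 and 72.8% ± 2.33 (SD, n = 3). All co-culture libraries were above all MS-5 only libraries, MO2 and MC3 included. The exon was picked after its values were seen, and the difference is given without a test. How many exons separate the groups over all genes was not computed. Among single transcripts, 11.7% of the 34440 tested did not overlap in TPM. Hnrnpa2b1-201, which skips it, was at 139, 157 and 115 TPM in MS-5 only against 101, 85.1 and 101 TPM in co-culture (log2 fold change -0.46, SE 0.22, adjusted p of 0.93 by edgeR). Hnrnpa2b1-204, which includes it, was at 176, 273 and 144 TPM in MS-5 only against 229, 270 and 301 TPM in co-culture (log2 fold change 0.53, SE 0.20, adjusted p of 0.70 by edgeR), and has no stretch of 31 bases of its own.

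The other main transcripts of Hnrnpa2b1 had log2 fold changes of 0.51 (Hnrnpa2b1-202), 0.34 (Hnrnpa2b1-203) and 0.10 (Hnrnpa2b1-210), each with overlapping groups in TPM and an adjusted p of 1.00 by edgeR. With a library left out Hnrnpa2b1-202 ranged from 0.21 (without MC3) to 0.83 (without MO2), and Hnrnpa2b1-203 from 0.11 (without MC2) to 0.48 (without MO1). The 36-base exon that sets the B1 protein apart from the A2 protein was included at 11.6%, 10.4% and 10.2% in MS-5 only against 10.4%, 12.3% and 10.8% in co-culture. Its sequence, at chr6:51467391-51467426 on the minus strand, is shown because it is the whole difference between A2 and B1:
Hnrnpa2b1 exon of 36 bases: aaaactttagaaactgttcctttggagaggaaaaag
The means were 10.7% ± 0.786 and 11.1% ± 0.985 (SD, n = 3), and the groups overlapped.

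Ptbp1 is known to limit its own level by skipping a 34-base exon, which leaves a transcript for nonsense-mediated decay, here Ptbp1-201. Inclusion of the exon (chr10:79862014-79862047) was 76.4%, 76.6% and 80.5% in MS-5 only against 80.2%, 79.3% and 76.0% in co-culture. The groups overlapped, with means of 77.8% ± 2.30 and 78.5% ± 2.21 (SD, n = 3), so that no difference was larger than the spread of the libraries. The exon is shown because its length, which is not a multiple of the codon length, shifts the frame when it is skipped:
Ptbp1 exon of 34 bases: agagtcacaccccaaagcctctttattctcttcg
A 78-base exon of Ptbp1 (chr10:79860117-79860194), known to set a longer and a shorter PTB protein apart, was included at 51.4%, 54.3% and 54.3% in MS-5 only against 57.5%, 54.4% and 56.5% in co-culture. Its means were 53.3% ± 1.67 and 56.2% ± 1.59 (SD, n = 3), and the groups were apart by less than 0.1 percentage points between MO2 and MC2.

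The named transcripts of Ptbp1 were Ptbp1-216, Ptbp1-202, Ptbp1-201 and the retained-intron Ptbp1-205, with log2 fold changes of 0.11, -0.03, 0.00 and 0.42. Their groups overlapped in TPM, and the direction of each but Ptbp1-205 (0.063 to 0.66) changed with a library left out. In Hnrnpa1, the coding Hnrnpa1-202 was at 470, 660 and 388 TPM in MS-5 only against 497, 448 and 633 TPM in co-culture (log2 fold change 0.12, SE 0.19). Hnrnpa1-203, annotated for nonsense-mediated decay, was at 85.2, 131 and 59.7 TPM in MS-5 only against 85.0, 47.9 and 165 TPM in co-culture (log2 fold change 0.10, SE 0.30). Each of these 6 transcripts had an adjusted p of 1.00 by edgeR. A 159-base exon of Hnrnpa1 (chr15:103242922-103243080) was included at 6.55% ± 1.96 in MS-5 only against 7.84% ± 0.314 in co-culture (SD, n = 3), with overlap. It is held by the coding Hnrnpa1-201, where it gives a longer protein, and by Hnrnpa1-204, annotated for nonsense-mediated decay. In MO2 and MC3 Hnrnpa1-201 was at 0 TPM and Hnrnpa1-204 at 76.9 and 67.8 TPM. The means therefore do not describe the longer protein alone.

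**Figure D5:**
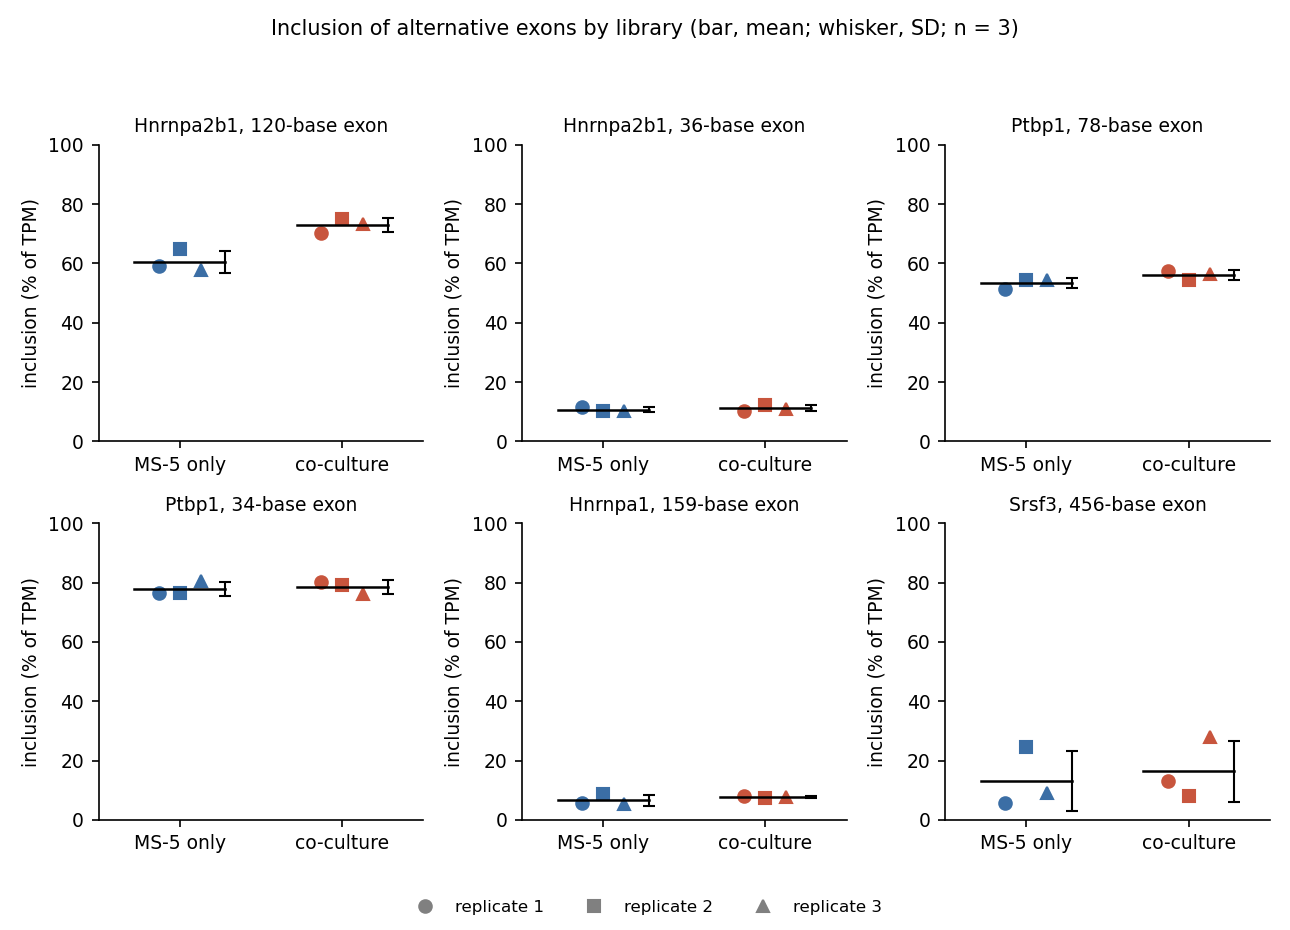
Inclusion of 6 alternative exons in percent of TPM (vertical axis, 0 to 100) in each library, with 1 point per library, the mean as a bar and the SD as a whisker. The 120-base exon of Hnrnpa2b1 lies at 57.7 to 64.7% in MS-5 only against 70.3 to 75.0% in co-culture, the 78-base exon of Ptbp1 is barely apart between groups, and the other 4 overlap.

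The wider families of the 4 factors had no gene past the threshold, where 4.38% of all genes were called. Of 25 genes of the hnRNP family, which bind pre-mRNA and often repress exons, all 25 were tested, 13 had positive and 12 negative log2 fold changes, and the median was 0.02 against -0.02 over all genes tested. Their extremes were Hnrnpab (-0.54, adjusted p of 0.55 by edgeR) and Hnrnph3 (0.47, adjusted p of 0.46 by edgeR), and in none of the 25 were the groups apart in CPM, as they were in 21.2% of all genes. With the term for MO2 and MC3, Hnrnpab, Hnrnpf and Hnrnpa3 were lower past the threshold, as were 16.4% of all genes in that fit. Of 13 genes of the SR family, which mostly promote exon inclusion, 12 were tested, 3 had positive and 9 negative values, and the median was -0.25. In 4 of the 12 all co-culture libraries were below all MS-5 only libraries in CPM, namely Srsf2, Srsf3, Srsf7 and Tra2b, against 9.60% of all genes.

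Tra2b was at 163, 144 and 147 CPM in MS-5 only against 110, 116 and 115 CPM in co-culture (log2 fold change -0.42, SE 0.12, adjusted p of 0.16 by edgeR). Srsf7 was at 126, 140 and 110 CPM in MS-5 only against 72.6, 82.0 and 108 CPM in co-culture (log2 fold change -0.52, SE 0.19, adjusted p of 0.27 by edgeR). The most negative value of the SR family was that of Srsf3 and the most positive that of Srsf9 (0.18, adjusted p of 0.85 by edgeR). On log2(TPM + 0.5) the values were -0.43 for Tra2b, -0.51 for Srsf7 and -0.39 for Srsf2, and of these 4 genes only Srsf3 was near 0, at -0.02. With the term for MO2 and MC3, 5 SR genes were lower and none higher past the threshold, in the fit that called 16.4% of genes lower and 13.9% higher.

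Of 7 kinases of SR proteins, 6 were tested, 5 had positive values and the median was 0.29, with extremes of -0.07 (Srpk1) and 0.50 (Clk2), and none was called. With that term 4 of the 6 were called higher, against 13.9% of all genes. Of 9 other genes tied to the splicing of Pkm, all were tested, none was called, 2 had positive and 7 negative values, and the median was -0.06. Nek2, a kinase that interacts with hnRNP A1 and A2/B1, was at 71.5, 54.2 and 69.1 CPM in MS-5 only against 43.3, 45.2 and 36.4 CPM in co-culture, without overlap (log2 fold change -0.64, SE 0.16, adjusted p of 0.12 by edgeR). It was the 1 gene of these 9 called with the term for MO2 and MC3, as lower (adjusted p of 0.010 by edgeR), where 16.4% of all genes were called lower. Rbm4, which is known to favour the M1 exon, had the most positive value (0.77, SE 0.39, adjusted p of 0.44 by edgeR), which rested on MC2. It was at 13.3, 14.1 and 12.2 CPM in MS-5 only against 15.5, 37.9 and 14.6 CPM in co-culture. Without MC2 the log2 fold change of Rbm4 was 0.18 (SE 0.17). Myc, which is known to raise the transcription of Ptbp1, Hnrnpa1 and Hnrnpa2b1, had a log2 fold change of 0.45 (SE 0.25, adjusted p of 0.51 by edgeR).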

How the data were processed

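The authors prepared stranded mRNA libraries and quantified paired reads with kallisto 0.43.0 against a mouse transcript index. They deposited, for each transcript and library, estimated counts, TPM and the (effective) length in bases, with no filter and no pooling. Deposited TPM divide the estimated counts by effective length and sum to a fixed total per library. Deposited lengths and effective lengths (other values) served for the length offset. The study's methods name an Ensembl release for the index, but 116728 of 118489 identifiers matched GENCODE M21 (GRCm38) by version, and the other 1761 (at most 0.562% of counts) were left out. All identifiers were of mouse transcripts, and reads of human RNA that match these could not be told apart here. Quantification with kallisto splits shared reads by a model, and that error is not in the deposited values.

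Estimated counts were rounded, summed per gene, filtered with filterByExpr (13221 genes, 34440 transcripts), normalised by TMM and tested with edgeR 4.0.16 (quasi-likelihood, Benjamini-Hochberg, threshold 0.1; R 4.3.3). Standard errors are the log2 fold change over the square root of F. Relative usage of transcripts was tested with diffSpliceDGE, and the M1 share with an exact permutation test. On simulated counts with 200 changed features, the gene test recovered 145 with 20 false calls among 165 (13221 genes) and the transcript test 27 with 3 false calls among 30 (34440 transcripts), so that a missing call of a transcript says little. The usage test recovered 9 of 200 with 37 false calls among 57 (26903 transcripts), and no result rests on it.

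Sequences, exons and shared stretches of 31 bases come from the GENCODE M21 transcripts of GRCm38. Genes sharing 100 or more stretches were counted as look-alikes. Named are all members, all Pkm transcripts, transcripts of the splicing factors with 5% or more of their gene's TPM in either group, the 5 genes most correlated with Pkm and with its M2 sum (log2 CPM, prior count 2), and, for each list, genes past the threshold and the largest rise and fall. Other genes and transcripts, and the alternative exons, were named after their values were seen. The members and lists were chosen with earlier results of these data known. Alternatives were DESeq2 1.42.0 (size factors, or its Wald test without independent filtering), library size, limma 3.58.1 on log2(TPM + 0.5), with 0.1 or 1 in place of 0.5, other filters, an effective length offset, a covariate for MO2 and MC3, the replicate number as a block, each library left out, and thresholds of 0.05 and 0.01. Leaving out MO2 and MC3 together, and the M1 share by TPM of protein-coding transcripts, were added after seeing the data. These 2 libraries were singled out by their values, so that the covariate for them also rests on the same data. Calls made with it, or without the 2 libraries, are not an independent check. Sleuth was not used.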

Additional observations from a re-analysis of the deposited data

How the results depend on the processing

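Of the results with a test, the log2 fold changes of Pkm, its M1 and M2 sums, Hnrnpa1 and Hnrnpa2b1 kept their direction under every alternative run. Pkm passed the threshold under limma on log2(TPM + 0.1) (0.60) and with the covariate for MO2 and MC3 (0.61), and Srsf3 under DESeq2 (-0.55), with the covariate (-0.55) and without MO2 and MC3 (-0.62). With the effective length offset Srsf3 was at 0.023. Leaving out 1 library at a time gave 0.39 to 0.84 for Pkm, 0.27 to 0.65 for the M1 sum, 0.44 to 0.95 for the M2 sum, -0.67 to -0.44 for Srsf3, 0.0008 to 0.15 for Hnrnpa1, 0.08 to 0.27 for Hnrnpa2b1 and -0.024 to 0.22 for Ptbp1.

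The M1 share differed by -3.00 to -1.69 percentage points with 1 library left out and by -2.39 by TPM, and stayed negative in all 11 alternatives. Not all of these could differ. Protein-coding transcripts alone and the transcript of each form with the highest mean TPM were the same transcripts (-2.19). The replicate block has the reported difference (-2.16) by construction.

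Among transcripts, leaving out 1 library reversed Pkm-203 (-1.18 to 3.28), Pkm-204 (-0.48 to 0.40), Pkm-205 (-1.30 to 3.05), Pkm-206 (-0.45 to 0.10), Pkm-207 (-0.030 to 0.70), Pkm-210 (-2.26 to 0.71), Ptbp1-201 (-0.11 to 0.26), Ptbp1-202 (-0.17 to 0.16), Ptbp1-216 (-0.10 to 0.25), Hnrnpa1-203 (-0.15 to 0.30) and Hnrnpa2b1-210 (-0.022 to 0.23). Pkm-203 and Pkm-205 turned negative without MC3. Without MO2 and MC3, Pkm-210 was at 0.13, Hnrnpa1-203 at -0.074 and Ptbp1-201 at -0.029. Ptbp1-201, at 0.004 in the reported fit, was also at -0.0083 with DESeq2 size factors and with DESeq2's test, at -0.011 by limma on TPM with each of the 3 pseudocounts, at -0.029 by library size and at -0.00021 with at least 5 counts in 3 libraries. Srsf3-202 passed the threshold under limma on TPM plus 0.5 or 0.1 and with the covariate, and under no other alternative. The usage of Pkm-202 was 0.11 with limma's diffSplice. The cause of these reversals was not tested.

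The 579 genes called became 2 at a threshold of 0.05, 0 at 0.01, 1268 with DESeq2, 356 and 224 with limma on TPM plus 0.5 and 1, 3999 with the covariate and 1702 without MO2 and MC3. They became 0 without any single MS-5 only library and 0 to 549 over all libraries left out in turn, so that calls over all genes depend on each MS-5 only library. The 0 transcripts called became 1157 with DESeq2, 172, 330 and 115 with limma on TPM plus 0.5, 0.1 and 1, 164 with no filter and 138 with the covariate, and stayed at 0 to 0 with a library left out. The 40 transcripts called in usage became 16 at 0.05 and 3 to 109 with a library left out. Of 64 list genes tested, the 1 called (Eno2) became 0 at 0.05 and 0.01, 2 by library size, 5 with DESeq2, 4, 5 and 4 with limma on TPM plus 0.5, 0.1 and 1, 20 with the covariate (31.2% of the 64, where 30.2% of all genes were called), 13 without MO2 and MC3 (20.3% against 13% of all genes), and 0 to 1 with a library left out, 0 without any MS-5 only library.

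Replicate numbers did not pair the samples, since same-numbered libraries had correlations of 0.53, -0.29 and -0.52 in their deviations from the group means, and MO2 correlated best with MC3 (0.73). With the replicate number as a block Pkm had an adjusted p of 0.88 and Srsf3 of 0.60 (edgeR), 3 transcripts were called in usage, and the M1 share gave p = 0.25 in the exact paired test, the smallest that 3 pairs allow. Depth does not limit Pkm, but transcripts listed at 0 could be present at up to 3 counts over the group.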
